A study of Ovis aries with 6 samples.

Results

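Granulosa cells, the somatic cells that surround the oocyte in the ovarian follicle, were profiled by RNA sequencing in sheep. Of the 6 libraries, 3 came from granulosa cells of atretic follicles (follicles that degenerate) and 3 from granulosa cells of healthy follicles. The labels give 3 independent biological replicates per group and name no animal, breed, follicle size or treatment, so p-values measure the spread between these libraries. Total RNA was depleted of ribosomal RNA, a preparation that keeps RNA without a poly(A) tail and unspliced nuclear RNA.

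The loci described here are places where reads piled up but the deposited table gives neither a gene name nor a strand. They were taken from the table by a fixed rule: no gene name, strand undetermined, outside the mitochondrial genome, and a mean count of at least 10 over the 6 libraries. Of 34119 loci in the table, 5640 had no name and 4050 of these lay outside the mitochondrial genome without a strand. The count threshold was met by 2951 of the 4050, which are the members described below. Of the other 1099, 93 had no count in any library, and together the 1099 held 0.00532 ± 0.000553% of counts in atretic and 0.00542 ± 0.000345% in healthy libraries (SD, n = 3 each).

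A transcript assembler such as StringTie builds transcript models from aligned reads and reads the strand of a model from its splice junctions or from a strand-marking library. A model of a single unspliced block in a library without strand information keeps no strand. RNA of this kind is known from many sources in mammalian cells, among them unannotated long noncoding RNA, RNA from enhancers and promoters, transcription past the end of a gene, repeats, and gene copies missing from the annotation. Which of these a given member is was not tested, and no sequence of the members was used here.

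The members had the form of single unspliced blocks. All 2951 had 1 transcript model. Their length ran between 201 and 66642 bases with a median of 552 and quartiles of 334 and 1300 bases. Of the members, 45.2% were shorter than 500 bases and 223 (7.56%) were longer than 5000 bases. Dividing count by FPKM (fragments scaled by locus length and library depth) returns the length behind the authors' scaling. This length was 110% of the genomic span at both quartiles over the 507 members with at least 200 counts in every library, while the median was 28.1% for protein-coding loci, which contain introns. The length counted in the members was thus not shorter than their span. They were also low: the median member had a mean count of 47.3 and a mean FPKM of 0.866, against 476.8 counts and 1.51 FPKM over all 25602 loci with a mean count of at least 10.

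Members lay on every chromosome and on 298 unplaced scaffolds. Chromosome 1 held 282, chromosome X 210, chromosome 2 208 and chromosome 3 195. Relative to the other loci tested, chromosome X was the richest, where members were 19.3% of tested loci, and chromosome 11 the poorest with 32 members and 2.92%. Over all placed chromosomes members were 9.88% of tested loci. Per 100 protein-coding loci, there were 44.3 members on chromosome X and 4.3 on chromosome 11. The unplaced scaffolds held 480 members (16.3%), at most 12 on one scaffold. None of the 605 loci that the table places on such scaffolds carries a gene name, so a locus there can only be unnamed.

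Most members on chromosomes were far from genes. The nearest protein-coding locus was a median of 56131 bases away, with quartiles of 9531.5 and 191096 bases and a largest distance of 2727516 bases, over the 2471 members with a protein-coding locus on the same chromosome. Of all members, 36 overlapped a protein-coding locus, 116 lay closer than 1 kb, 475 between 1 and 10 kb, 879 between 10 and 100 kb and 965 farther than 100 kb. Unnamed loci that do have a strand were closer, with a median distance of 1696.5 bases and 53.8% within 10 kb or overlapping, against 21.2% of the members. Members fell on both sides of their nearest gene, 1296 upstream and 1139 downstream.

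Depth was similar in all libraries, with 87455037 to 90266795 counts in atretic and 91176447 to 91597388 in healthy libraries. Healthy replicate 3 differed from healthy replicates 1 and 2. The biological coefficient of variation estimated by edgeR was 0.468 with all 6 libraries and 0.325 without healthy replicate 3, so results are given with and without it where leaving it out changes them. The granulosa gene FSHR, the receptor of follicle-stimulating hormone, was present in all libraries at 7.11 to 7.42 FPKM in atretic and 6.71 to 8.61 in healthy. Over the 10 granulosa markers found, summed FPKM was 549 to 603 in atretic and 597 to 2220 in healthy, the highest value in healthy replicate 3. INHBA made most of that sum, with 336 to 392 FPKM in atretic and 324, 327 and 1660 in healthy replicates 1, 2 and 3. AMH, AMHR2 and HSD17B1 went the other way, lower in healthy replicate 3 than in healthy replicates 1 and 2. The other granulosa markers found were highest in healthy replicate 3. Summed FPKM of 11 macrophage markers was 32.7 to 39.8 in atretic and 47.1 to 113 in healthy, that of 8 immediate-early genes was 734 to 891 in atretic and 273 to 448 in healthy, and that of 6 heat shock genes, of 7 listed, was 426 to 489 in atretic and 139 to 337 in healthy. The part of these shifts in the results below was not tested, and in bulk RNA fewer cells of a type and less RNA per cell cannot be told apart.

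Members took a larger share of the reads in atretic than in healthy libraries. In the order of replicates 1, 2 and 3, used for all values per library below, they held 4.17, 4.14 and 4.44% of all counts in atretic libraries, against 3.63, 3.65 and 3.36% in healthy libraries. Every atretic library was above every healthy one. The means were 4.25 ± 0.165% in atretic libraries, against 3.55 ± 0.162% in healthy libraries (SD, n = 3 each), a difference of 0.701 percentage points with an exact two-sided permutation p of 0.1, the smallest that 3 against 3 libraries allow. A single member on an unplaced scaffold, MSTRG.514, made most of this difference, with 1.11 ± 0.0656% in atretic libraries, against 0.602 ± 0.146% in healthy libraries (SD, n = 3 each, difference 0.508 percentage points). The other 479 members on unplaced scaffolds held 0.642 ± 0.00678% in atretic libraries, against 0.565 ± 0.0651% in healthy libraries (SD, n = 3 each, difference 0.077 percentage points). All 480 together held 1.75 ± 0.0719% in atretic libraries, against 1.17 ± 0.207% in healthy libraries (SD, n = 3 each, exact permutation p = 0.1). On chromosomes the share was 2.50 ± 0.1% in atretic libraries, against 2.38 ± 0.0454% in healthy libraries (SD, n = 3 each, exact permutation p = 0.2). A larger share in atretic libraries was not particular to the members. Unnamed loci with a strand, at any count, held 6.0 ± 0.202% in atretic libraries, against 5.2 ± 0.135% in healthy libraries (SD, n = 3 each). Their difference was 0.801 percentage points (exact permutation p = 0.1).

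The members' share rests on very few loci. The member with most counts held 44.3% of all member counts, the first 2 together 66.2%, the first 10 held 74.0% and the first 100 held 85.7%. Without the first 2, the other 2949 members took 1.37, 1.34 and 1.39% of counts in atretic libraries, against 1.27, 1.32 and 1.21% in healthy libraries, which again did not overlap (difference 0.101 percentage points, exact permutation p = 0.1).

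The most abundant member, MSTRG.17078, lies on chromosome 21 (45469050 to 45479788). It had 1481012, 1571246 and 1684118 counts in atretic libraries, against 1515059, 1517649 and 1561554 in healthy libraries. The groups overlapped, and the log2 fold change was 0.09 (SE 0.21, Benjamini-Hochberg adjusted p = 0.917 in edgeR's quasi-likelihood fit). Its mean FPKM was 1460. The deposited table names no gene at MSTRG.17078 and its identity was not tested.

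The next most abundant member, MSTRG.514, fills the first 9073 bases of an unplaced scaffold. It had 962570, 943329 and 1065077 counts in atretic libraries, against 638524, 615658 and 396702 in healthy libraries. Every atretic library was above every healthy one, with healthy replicate 3 the lowest. The log2 fold change of MSTRG.514 was 0.94 (SE 0.18, edgeR's adjusted p = 0.199 with all 6 libraries), and 0.85 with an adjusted p of 0.00112 without healthy replicate 3. Leaving out one of the other libraries gave adjusted p-values up to 0.857.

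MSTRG.515 follows on the same scaffold (9415 to 11745) and passed the test with all 6 libraries. It had 58374, 55913 and 63988 counts in atretic libraries, against 29255, 26396 and 21928 in healthy libraries. Mean CPM (counts scaled to library size) was 752 ± 61.2 in atretic libraries, against 311 ± 16.2 in healthy libraries (SD, n = 3 each), a log2 fold change of 1.27 (SE 0.13, edgeR's adjusted p = 0.0426). It did not pass with limma on log2(FPKM + 1) (adjusted p = 0.306) or with edgeR on total counts without TMM scaling (adjusted p = 0.077). The mitochondrial locus MSTRG.21, which is no member, moved alongside. It had 48374, 46363 and 53890 counts in atretic libraries, against 25557, 23503 and 17605 in healthy libraries (log2 fold change 1.24, edgeR's adjusted p = 0.0474). The number of MSTRG.515 counts per MSTRG.21 count was 1.21, 1.21 and 1.19 in atretic libraries, against 1.14, 1.12 and 1.25 in healthy libraries. For MSTRG.514 the number per MSTRG.21 count was 19.8 to 20.3 in atretic libraries, against 22.5 to 26.2 in healthy libraries. Its ratio to MSTRG.21 was thus not common to both groups. The mitochondrial MSTRG.22 had 755801, 795650 and 866938 counts in atretic libraries, against 608710, 560218 and 276813 in healthy libraries. Whether MSTRG.514 kept a common ratio to MSTRG.22 or MSTRG.24 was not tested. The other mitochondrial loci, MSTRG.22 and MSTRG.24, had log2 fold changes of 0.85 and 1.12 (edgeR's adjusted p = 0.338 and 0.0684), against 0.94 for MSTRG.514. Together the 3 mitochondrial loci held 1.2 ± 0.0666% of counts in atretic libraries, against 0.666 ± 0.222% in healthy libraries (SD, n = 3 each). The counts of MSTRG.515 and MSTRG.514 are uncertain, since whether their reads can also align to the mitochondrial genome was not tested.

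In edgeR's quasi-likelihood fit, adjusted by Benjamini-Hochberg over all 25602 loci, 11 members were higher and 0 were lower in atretic. Over all tested loci, 22 (0.0859%) were higher and 3 (0.0117%) were lower, so members were 11 of the 22 higher loci while making up 11.5% of those tested. A raised share was not particular to the members: unnamed loci with a strand, 1276 of the tested loci, gave 4 of the 22. Several of the 11 members are neighbours, on chromosomes 7 and X, so they are not 11 separate places. At an unadjusted p under 0.05, 151 of the 2951 members were higher and 48 lower, against 1420 (5.55%) and 1235 (4.82%) of the 25602 tested loci. The share of members higher was thus just under the background, and the share lower was well under it. DESeq2 called 64 members higher (2.17%, against 1.87% of all tested loci) and 8 lower (0.271%, against 1.27%), so by DESeq2 the share of members called higher was near the background. All 11 members called by edgeR had every atretic library above every healthy one, and the plot of reads at these loci shows each library.

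**Figure D1:**
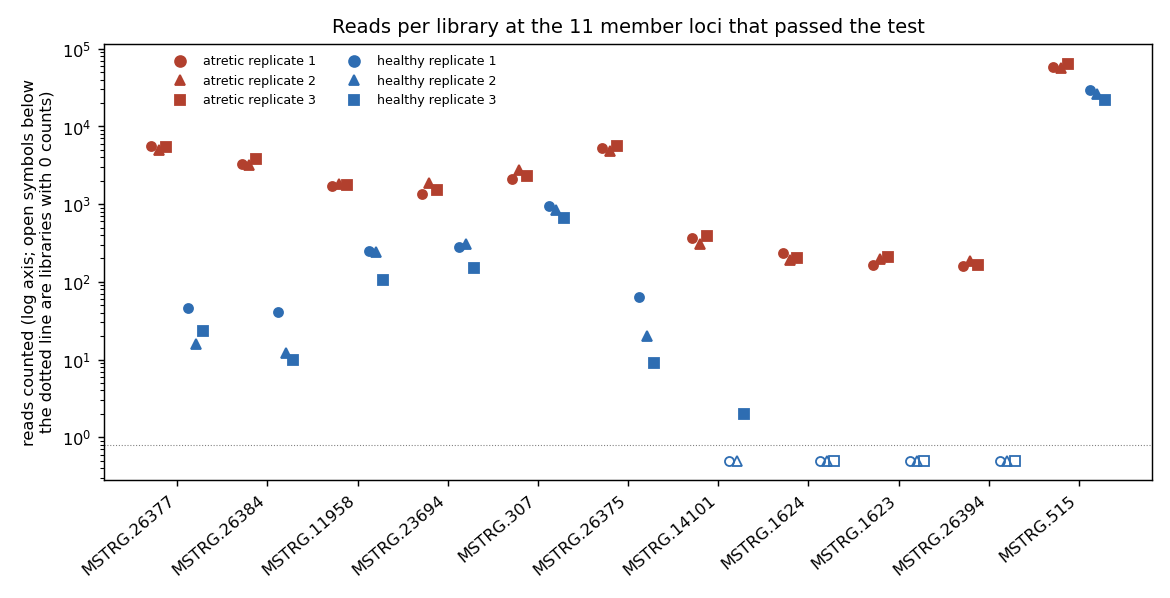
Reads counted in each of the 6 libraries (log axis) at the 11 members that passed edgeR's test, ordered by p, with atretic libraries in red left of healthy libraries in blue. At every locus the 3 red symbols lie above the 3 blue ones, and MSTRG.1624, MSTRG.1623 and MSTRG.26394 had 0 counts in all 3 healthy libraries (open symbols).

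The calls depended on single libraries. No member passed when atretic replicate 1, 2 or 3 was left out, 5 passed as higher without healthy replicate 1, 1 passed as higher without healthy replicate 2, and 114 passed as higher without healthy replicate 3. All 11 were among the 114, with adjusted p-values of 0.000124 to 0.000626. The largest adjusted p of each of the 11 over the 6 omissions was between 0.189 and 0.425.

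Of the called members, 3 were neighbours on chromosome 7, in a block of loci that were close to silent in healthy follicles. MSTRG.26377 (39463005 to 39490151, 27147 bases) had 5523, 4950 and 5475 counts in atretic libraries, against 46, 16 and 23 in healthy libraries. It was 198-fold higher in atretic by mean CPM (log2 fold change 7.62, SE 0.42, edgeR's adjusted p = 0.0182). No healthy library came near the lowest atretic one.

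MSTRG.26375 (39427410 to 39450513) had 5318, 4812 and 5580 counts in atretic libraries, against 64, 20 and 9 in healthy libraries (log2 fold change 7.52, SE 0.67, edgeR's adjusted p = 0.0351). MSTRG.26384 (39490556 to 39509136) had 3324, 3189 and 3788 counts in atretic libraries, against 41, 12 and 10 in healthy libraries (log2 fold change 7.45, SE 0.55, edgeR's adjusted p = 0.0251). In all 3 members healthy replicate 1 was the highest healthy library.

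The block had 6 members in all within 328 kb (39187347 to 39515477), delimited after the values were seen. The other 3 did not pass with all 6 libraries. MSTRG.26376 had 1086, 1225 and 1297 counts in atretic libraries, against 18, 0 and 0 in healthy libraries (edgeR's adjusted p = 0.12). MSTRG.26385 had 888, 910 and 881 counts in atretic libraries, against 12, 0 and 0 in healthy libraries (edgeR's adjusted p = 0.0895). The short MSTRG.26373 had 27, 31 and 113 counts in atretic libraries, against 0, 0 and 4 in healthy libraries (edgeR's adjusted p = 0.328). All 6 passed without healthy replicate 3, where their adjusted p-values were at most 0.0199.

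Summed over the 6 members, CPM was 212, 185 and 216 in atretic libraries, against 2.01, 0.533 and 0.662 in healthy libraries. The atretic mean was 191-fold higher. Healthy replicate 1 lowered this fold, which was 342 without that library, 153 without healthy replicate 2 and 161 without healthy replicate 3. The block lies in a gene-poor interval, where the nearest protein-coding loci of the table are ENSOARG00020019955 at 484 kb on one side and MDGA2 at 824 kb on the other. ENSOARG00020019955 had a log2 fold change of 0.07 (edgeR's adjusted p = 0.962) and MDGA2 of 0.90 (edgeR's adjusted p = 0.722). RefSeq's gene list, on its own assembly ARS-UI_Ramb_v3.0, has 6 genes between EPB42 and MDGA2, among them RPL10L and the long noncoding RNA LOC132660128.

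**Figure D2:**
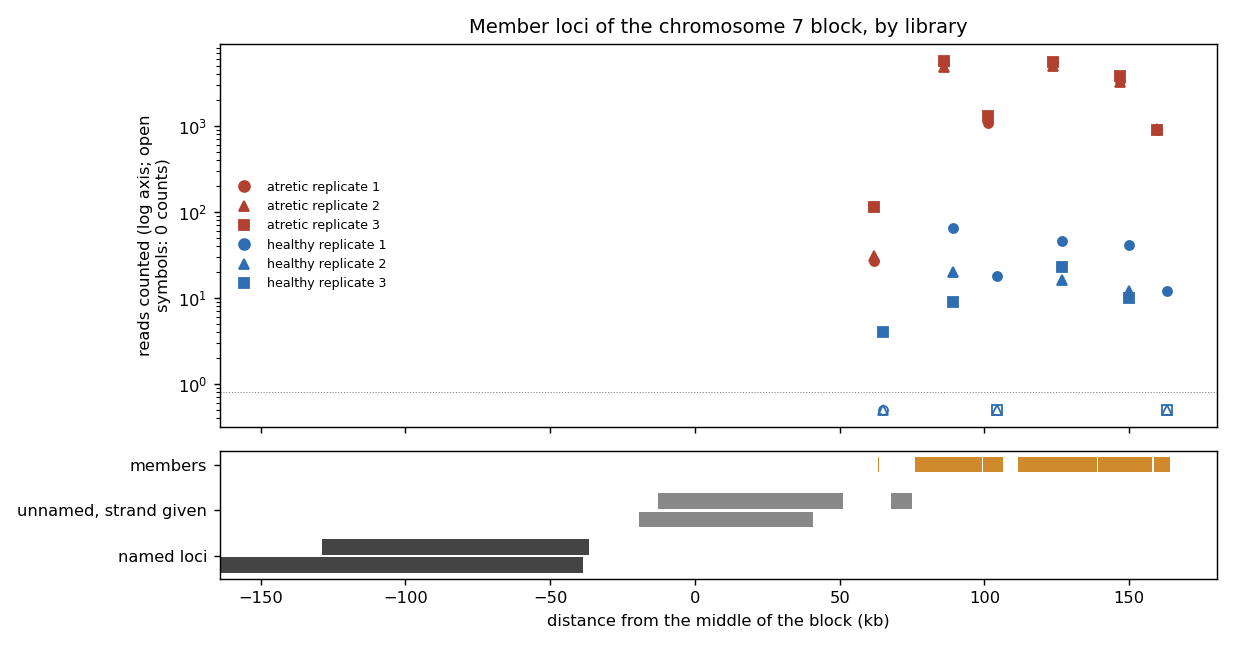
The 6 members of the chromosome 7 block, with reads counted per library on a log axis above (atretic in red left of healthy in blue, open symbols for 0 counts) and the extent of each tested locus of the block below, against the distance from the block's middle in kb. The atretic libraries reach 3189 to 5580 reads at MSTRG.26375, MSTRG.26377 and MSTRG.26384, where healthy libraries stay at 9 to 64, and the members lie at one end of the block, next to loci with a strand or a name.

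A further pair of members lies 267 and 270 kb beyond the block. MSTRG.26394 (39782502 to 39783585) had 160, 187 and 165 counts in atretic replicates 1, 2 and 3, and every healthy library was at 0. Taking 3 counts summed across the healthy libraries as the floor, it was at least 179-fold higher (edgeR's adjusted p = 0.0423). MSTRG.26393 next to it had 45, 29 and 85 counts in atretic replicates 1, 2 and 3, and every healthy library was at 0. It did not pass (edgeR's adjusted p = 0.167).

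The same on and off pattern was seen at 3 called members elsewhere, all shorter than 400 bases. MSTRG.1624 on chromosome X (122882645 to 122882880) had 232, 191 and 204 counts in atretic replicates 1, 2 and 3, and its neighbour MSTRG.1623 (122876034 to 122876399) had 165, 197 and 211. Both had 0 counts in all 3 healthy libraries, so MSTRG.1624 was at least 220-fold and MSTRG.1623 at least 201-fold higher in atretic by the same floor (edgeR's adjusted p = 0.0381 and 0.0388). The nearest protein-coding locus was ENSOARG00020020608, 75099 bases from MSTRG.1623.

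MSTRG.14101 on chromosome 2 (59142859 to 59143100) had 366, 303 and 388 counts in atretic libraries, against 0, 0 and 2 in healthy libraries. The ratio of summed counts, scaled to library size, was 555 (exact 95% interval 153 to 4590, for counting error only), and edgeR's adjusted p was 0.0381. Its nearest protein-coding locus is TLE1, a transcriptional corepressor, 591413 bases away. With on set at 30 or more counts in each library of a group and off at 3 or fewer, limits chosen after the values were seen, 4 members were on in atretic and off in healthy and 0 were the reverse. Over all tested loci there were 11 and 1.

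MSTRG.11958 on chromosome 18 (16824020 to 16835796, 11777 bases) lies 4507 bases upstream of AEN, a nuclease induced by p53 in apoptosis. It had 1701, 1825 and 1783 counts in atretic libraries, against 248, 244 and 107 in healthy libraries. Mean CPM was 22.4 ± 0.0743 in atretic libraries, against 2.33 ± 0.689 in healthy libraries (SD, n = 3 each), a log2 fold change of 3.26 (SE 0.26, edgeR's adjusted p = 0.0351). AEN itself had 18.9, 20.8 and 19.1 CPM in atretic libraries, against 29.0, 31.2 and 3.4 in healthy libraries. Its groups overlapped through healthy replicate 3 (log2 fold change -0.11, edgeR's adjusted p = 0.969), and without that library AEN was lower in atretic, at -0.62 (edgeR's adjusted p = 0.0113). RefSeq's list has the long noncoding RNA LOC132658156 between DET1 and AEN.

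MSTRG.23694 on chromosome 5 (4942792 to 4946052) ends 347 bases upstream of JUND, a subunit of the transcription factor AP-1. It had 1365, 1900 and 1501 counts in atretic libraries, against 282, 310 and 150 in healthy libraries (log2 fold change 2.78, SE 0.24, edgeR's adjusted p = 0.0351). JUND had 69.4 ± 8.22 CPM in atretic libraries, against 70.0 ± 10.6 in healthy libraries (SD, n = 3 each, log2 fold change -0.01, edgeR's adjusted p = 0.988). On the other side of the gene, MSTRG.23699 lies 5733 bases downstream of JUND (4953417 to 4954698). It had 22, 80 and 104 counts in atretic libraries, against 361, 381 and 229 in healthy libraries. Every atretic library was below every healthy one. The log2 fold change was -2.16 (SE 0.54, edgeR's adjusted p = 0.282), with an adjusted p of 0.0355 without healthy replicate 3 and up to 0.671 on leaving out one of the others.

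The last called member, MSTRG.307, lies on an unplaced scaffold. It had 2134, 2740 and 2296 counts in atretic libraries, against 951, 851 and 656 in healthy libraries. Mean CPM was 30.1 ± 3.0 in atretic libraries, against 9.82 ± 0.64 in healthy libraries (SD, n = 3 each), a log2 fold change of 1.62 (SE 0.14, edgeR's adjusted p = 0.0351). The groups did not overlap. The call was lost with limma on log2(FPKM + 1) (adjusted p = 0.0527) and with edgeR on total counts without TMM scaling (adjusted p = 0.0931).

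edgeR called no member lower with all 6 libraries, and DESeq2 called 8. Among members with non-overlapping groups and a mean count of at least 100, the 8 lower ones with the smallest p had log2 fold changes between -2.16 and -0.47. MSTRG.20624 on chromosome 3 (64564333 to 64564618), with the smallest p, had 80, 113 and 126 counts in atretic libraries, against 316, 296 and 175 in healthy libraries (log2 fold change -1.21, SE 0.28, edgeR's adjusted p = 0.246). MSTRG.23986 on chromosome 5 (16378821 to 16379103) had 211, 168 and 261 counts in atretic libraries, against 494, 507 and 357 in healthy libraries (SE of the log2 fold change 0.23, edgeR's adjusted p = 0.251).

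The median log2 fold change of the members was 0.07 and that of all tested loci -0.019. The members' median was 0.018 without atretic replicate 1 and 0.031 without atretic replicate 3. As a deviation from the mean of the 6 libraries on the log2(CPM + 0.5) scale, the members' median was 0.045, -0.035 and 0.039 in atretic libraries, against -0.128, -0.099 and 0.008 in healthy libraries, so the groups overlapped through healthy replicate 3. The median log2 fold change was 0.10 for unnamed loci with a strand, 0.009 for named unstranded loci without an annotated transcript and -0.065 for protein-coding loci. Every atretic library was above every healthy one at 329 members (11.1%, against 10.6% of all tested loci). Every atretic library was below every healthy one at 105 members (3.56%, against 8.34%). The share of members that were higher in this sense was close to the background, and the share that were lower was under it. The low share of lower loci was not particular to the members: it was 4.86% for unnamed loci with a strand, 5.23% for named unstranded loci and 4.04% for named stranded loci without an annotated transcript, and 12.1% for protein-coding loci.

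Without healthy replicate 3, 114 members were higher in atretic (3.86%, against 6.18% of all tested loci) and 25 were lower (0.847%, against 4.43%), by edgeR's test. Both shares were under the background, and the members have fewer reads than most tested loci. Within equal ranges of counts the picture differed by direction. Of the 220 members with a mean count of at least 1000, 13.6% were higher and 2.27% lower, against 11.7% and 5.36% of all tested loci in that range. Of the 764 members with 100 to 1000 counts, 8.25% were higher and 2.23% lower, against 4.43% and 6.33%. At 30 to 100 counts 1.69% of 888 members were higher and 0.113% lower, against 1.12% and 2.07%. At 10 to 30 counts 0.556% of 1079 members were higher and 0.185% lower, both under the background of 0.663% and 0.74%. The median log2 fold change of the members without healthy replicate 3 was 0.222, against 0.028 over all tested loci. This was not particular to the members. The median was 0.214 for unnamed loci with a strand and -0.089 for protein-coding loci. Among named loci without an annotated transcript it was 0.186 for unstranded and 0.262 for stranded ones.

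**Figure D3:**
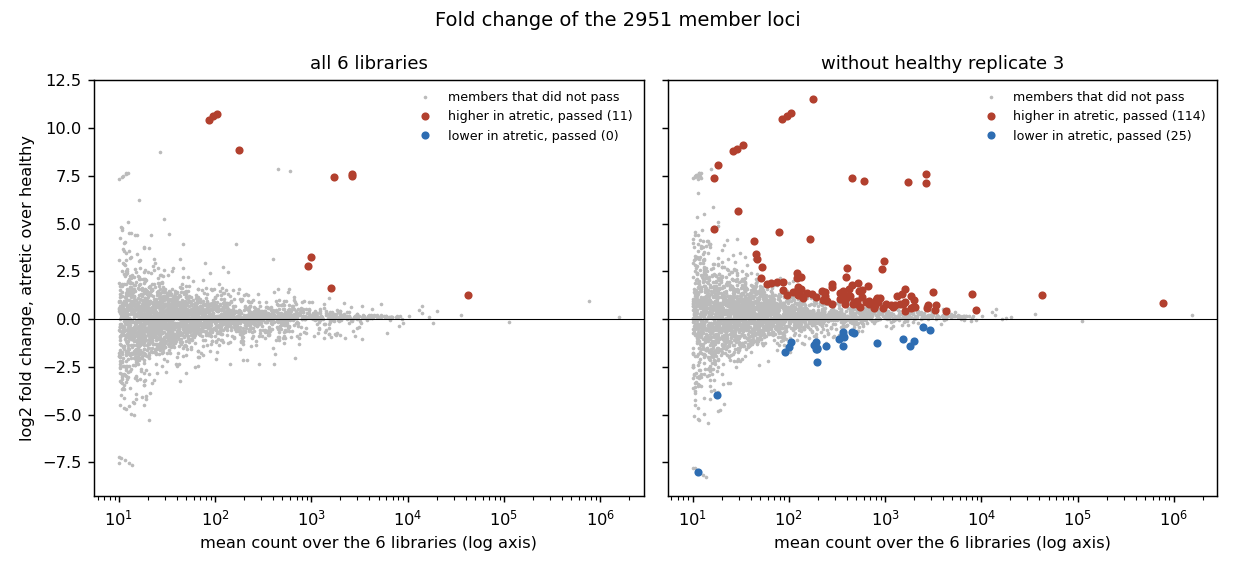
Log2 fold change (atretic over healthy) of the 2951 members against their mean count on a log axis, with all 6 libraries on the left and without healthy replicate 3 on the right. Coloured points passed edgeR's test at an adjusted p under 0.05, 11 higher and 0 lower on the left, 114 higher and 25 lower on the right.

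Longer members were more often higher in atretic, and they also had more reads. Of the 223 members longer than 5000 bases, 70.4% had a positive log2 fold change and 26.9% had non-overlapping groups with atretic higher. Of the 1335 members shorter than 500 bases, these shares were 49.4% and 7.57%. The median mean count was 1647 in the long class and 20.8 in the short one, and the part of depth in this difference was not tested.

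Of the members that passed only without healthy replicate 3, 3 beside well-studied genes are described, chosen after their values were seen. MSTRG.20412 on chromosome 3 (39940147 to 39943584), 25133 bases downstream of PCBP1, an RNA-binding protein that also acts as an iron chaperone, had 650, 674 and 824 counts in atretic libraries, against 141, 116 and 12 in healthy libraries. The groups did not overlap, and the log2 fold change was 3.16 with all 6 libraries (edgeR's adjusted p = 0.245) and 2.66 without healthy replicate 3 (edgeR's adjusted p = 0.000489). PCBP1 had a log2 fold change of -0.04 (edgeR's adjusted p = 0.942).

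MSTRG.2351 on chromosome 1 (35088673 to 35093395), 4999 bases downstream of the AP-1 gene JUN, had 733, 749 and 1014 counts in atretic libraries, against 317, 346 and 299 in healthy libraries (log2 fold change 1.43, edgeR's adjusted p = 0.0915, and 0.00411 without healthy replicate 3). JUN itself had 358, 426 and 354 CPM in atretic libraries, against 224, 200 and 232 in healthy libraries (log2 fold change 0.80, edgeR's adjusted p = 0.14, and 0.00357 without healthy replicate 3). MSTRG.18545 on chromosome 24 (10160660 to 10161626), 3874 bases downstream of SOCS1, an inhibitor of cytokine signalling, had 166, 251 and 201 counts in atretic libraries, against 35, 51 and 14 in healthy libraries (log2 fold change 2.74, edgeR's adjusted p = 0.131, and 0.00488 without healthy replicate 3). SOCS1 had 4.99, 5.52 and 3.5 CPM in atretic libraries, against 2.68, 1.46 and 0.648 in healthy libraries (log2 fold change 1.55, edgeR's adjusted p = 0.396, and 0.0669 without healthy replicate 3). The groups overlapped at neither member and at neither gene.

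At other members healthy replicate 3 turned the direction. Of the 114 higher without it, 22 had a negative log2 fold change with all 6 libraries, and healthy replicate 3 was above every atretic library at 37. MSTRG.2219 on chromosome 1 (25271601 to 25300242) had 7399, 6976 and 7611 counts in atretic libraries, against 3230, 3479 and 19735 in healthy libraries. Its log2 fold change was -0.37 with all 6 libraries (edgeR's adjusted p = 0.91) and 1.32 without healthy replicate 3 (edgeR's adjusted p = 0.000409). Healthy replicate 3 held more than 50% of the summed CPM of a locus at 165 members (5.59%, against 2.12% of all tested loci), and 163 members had 0 counts there (5.52%, against 3.89%). At 12 members (0.407%, against 0.469% of all tested loci) it alone was off while each of the other 5 libraries had 30 or more counts, a share near the background.

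Some members lay in rows. With neighbours joined across gaps of at most 10 kb, 150 clusters of 3 or more members held 553 members (18.7%), the largest with 9. The median cluster spanned 12.8 kb. Within 42 clusters all members had a positive log2 fold change, within 31 all were negative and 77 were mixed. The summed CPM of a cluster was higher in every atretic than in every healthy library at 28 of the 150 clusters and lower at 6. Of all tested loci, 10.6% were higher and 8.34% lower in this sense. Healthy replicate 3 was the highest library at 61 of the 150 clusters and the lowest at 34. It was the highest at 29.2% and the lowest at 30.1% of all tested loci. A cluster sums several loci, so the shares over single loci are only a rough background. The share of all counts in clusters was 0.364 ± 0.0119% in atretic libraries, against 0.357 ± 0.0164% in healthy libraries (SD, n = 3 each, exact permutation p = 0.6).

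The cluster with most members spans 38.1 kb of chromosome X (27122421 to 27160537). Its 9 members summed to 14.3, 14.8 and 18.8 CPM in atretic libraries, against 7.93, 11.2 and 31.2 in healthy libraries. Healthy replicate 3 was the highest library at all 9 members, so the groups overlapped. The next, with 7 members 64569 bases or more upstream of DTNA on chromosome 23 (26784009 to 26845395), summed to 46.9, 40.1 and 41.3 CPM in atretic libraries, against 15.7, 15.1 and 147 in healthy libraries. The atretic libraries lay between the low healthy pair and the high healthy replicate 3. Its most abundant member, MSTRG.17958, had a log2 fold change of -0.42 with all 6 libraries (edgeR's adjusted p = 0.902) and of 1.44 without healthy replicate 3 (edgeR's adjusted p = 0.000589).

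In a cluster of 7 members upstream of HDAC9, a histone deacetylase, on chromosome 4 (30338914 to 30391807) healthy replicate 3 was instead the lowest library at every member. The sums were 24.5, 22.4 and 22.0 CPM in atretic libraries, against 26.6, 26.1 and 11.8 in healthy libraries. HDAC9 was also lowest in healthy replicate 3, with 8.08, 8.35 and 9.51 CPM in atretic libraries, against 10.2, 8.0 and 2.69 in healthy libraries.

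The clearest run of lower members lies on chromosome 18 between CLEC14A, a C-type lectin of endothelial cells, and SEC23A. There, 10 members in 2 adjoining clusters span 104 kb (47682479 to 47786304), a run singled out after its values were seen. Their summed CPM was 36.4, 28.6 and 35.3 in atretic libraries, against 88.4, 83.5 and 2.65 in healthy libraries. The atretic libraries lay far below healthy replicates 1 and 2 and far above healthy replicate 3. Without healthy replicate 3, 7 of the 10 were lower in atretic, and with all 6 libraries 0 passed.

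The longest of the run, MSTRG.12319 (30938 bases), had 1142, 1081 and 1375 counts in atretic libraries, against 3741, 3391 and 115 in healthy libraries. Its log2 fold change was -0.83 with all 6 libraries (edgeR's adjusted p = 0.811) and -1.38 without healthy replicate 3 (edgeR's adjusted p = 0.00119). Marker sums of stroma (14.3 to 16.3 FPKM in atretic, 11.4 to 37.5 in healthy, 6 of 6 genes found), endothelium (1.66 to 1.96 and 1.54 to 4.5, 6 of 6) and oocyte (0.976 to 1.16 and 0.275 to 3.38, 3 of 5) also had healthy replicate 3 lowest and healthy replicates 1 and 2 highest. Not every gene followed its sum. Healthy replicate 3 was above every atretic library at LUM (9.21 against 5.81 to 7.01 FPKM), COL3A1 (0.609 against 0.406 to 0.59) and PECAM1. COL1A1 and COL1A2 had healthy replicate 3, and VWF healthy replicate 2, within the atretic range. DCN, PDGFRA, KDR, TIE1 and the 3 oocyte genes followed their sums. The endothelial CDH5 was listed at 0 in all atretic libraries and in healthy replicates 1 and 2, and ESAM in all libraries but healthy replicate 1. The part of these cell types in the run was not tested.

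**Figure D4:**
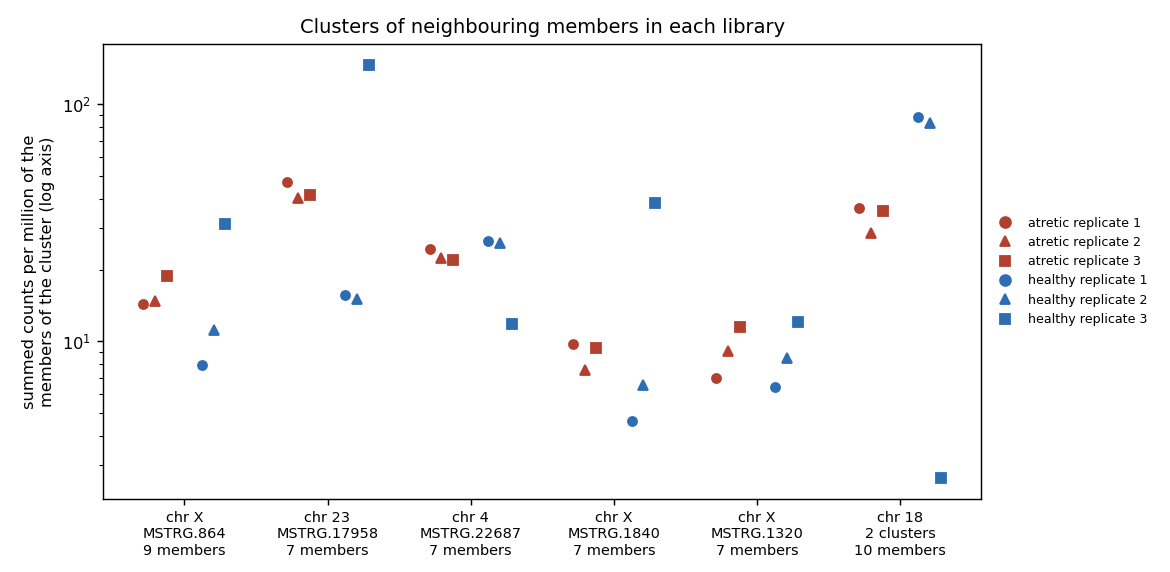
Summed CPM of the members of the 5 largest clusters and of the 10 members of the chromosome 18 run in each library (log axis), with atretic in red left of healthy in blue. Healthy replicate 3 (blue square) lies above the other libraries in the clusters of MSTRG.864, MSTRG.17958, MSTRG.1840 and MSTRG.1320 and below them in that of MSTRG.22687 and in the chromosome 18 run.

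The members' median log2 fold change differed by distance and side of the nearest gene, a description with no test. At 65 members closer than 1 kb upstream of a protein-coding locus, the median log2 fold change was 0.434, and 17 (26.2%, against 10.6% of all tested loci) had every atretic library above every healthy one. None had the reverse. At the 51 members closer than 1 kb downstream, the median was 0.079, with 7 higher and 1 lower in this sense. From 1 to 10 kb the medians were 0.209 upstream and 0.006 downstream, from 10 to 100 kb -0.015 and -0.01, and beyond 100 kb 0.047 and -0.047. Without healthy replicate 3, edgeR's test called 4 of the 65 higher (6.15%, against 6.18% of all tested loci) and 1 lower, a share of higher calls close to the background.

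**Figure D5:**
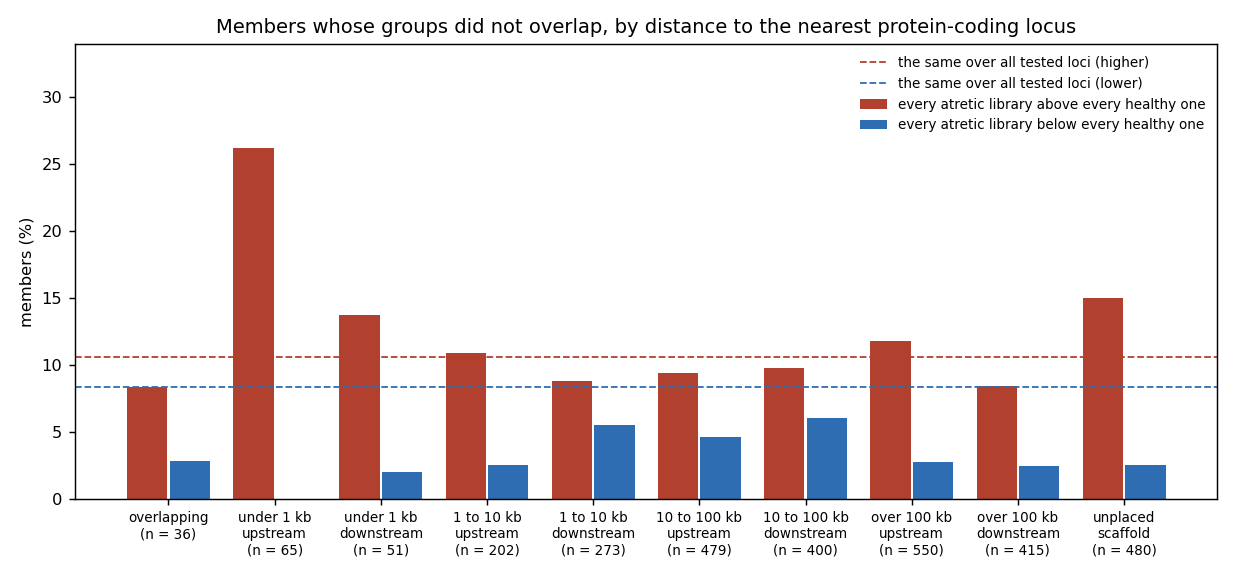
Percent of members whose 3 atretic libraries all lay above (red) or all below (blue) the 3 healthy ones in CPM, by distance and side of the nearest protein-coding locus, with dashed lines for all tested loci (10.6% and 8.34%). The red bar reaches 26.2% directly upstream of genes, where there is no blue bar, and 15.0% on unplaced scaffolds.

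Of the 62 upstream members whose gene was tested, 41 (66.1%) had a log2 fold change of the same sign as the gene, with a Spearman's rho of 0.36 across loci. The 17 were picked for being higher in atretic, so the size of their fold changes relative to their genes is no finding. The log2 fold changes of the 17 ran between 0.45 and 2.78 and those of their genes between -0.47 and 0.53, positive at 8, and edgeR called 0 of the genes with all 6 libraries. Besides JUND, the genes include HSD17B7, an enzyme of steroid and cholesterol synthesis, YY1, a zinc finger transcription factor, IRF2, a regulator of interferon genes, CD81, a tetraspanin, and RPL27A, a ribosomal protein. MSTRG.3260, 342 bases upstream of HSD17B7 on chromosome 1 (121564605 to 121565154), had 82, 61 and 68 counts in atretic libraries, against 25, 12 and 24 in healthy libraries. The groups did not overlap (log2 fold change 1.82, SE 0.50, edgeR's adjusted p = 0.324), while HSD17B7 had a log2 fold change of -0.47 (edgeR's adjusted p = 0.361).

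MSTRG.12506, 345 bases upstream of YY1 on chromosome 18 (65660232 to 65669224), had 738, 832 and 727 counts in atretic libraries, against 691, 487 and 353 in healthy libraries (log2 fold change 0.68, edgeR's adjusted p = 0.375). YY1 had a log2 fold change of 0.01. Across loci, Spearman's rho between the fold change of a member and that of its nearest gene was 0.34 under 1 kb (113 pairs), 0.227 from 1 to 10 kb (436 pairs), 0.21 from 10 to 100 kb (721 pairs) and 0.126 beyond (760 pairs). The pairs share their libraries and several members share a gene, so these values are a description.

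At the count threshold itself libraries of one group varied widely. The 3 members just inside, MSTRG.10457, MSTRG.11177 and MSTRG.14227, had between 0 and 35 counts per library, and the 3 loci just outside, MSTRG.10147, MSTRG.13829 and MSTRG.16057, between 0 and 39. The median coefficient of variation between atretic replicates was 57.6% for the 1079 members with fewer than 30 counts and 7.16% for the 220 with 1000 or more.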

How the data were processed

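RNA of granulosa cells was sequenced in 6 libraries, 3 per group. The authors deposited 1 table of loci with raw read counts and FPKM values, per the file headers. Per the submitters' processing notes, the tools include StringTie 2.1.6, HISAT2 2.0.4, cutadapt 1.9, SAMtools and FastQC 0.11.9, with no role or order. Genome build and use of strand in counting: not given in the sources used here, and coordinates stand as in the deposited table. RefSeq's gene list served only for names and neighbours: of 11855 protein-coding symbols shared with the table, 0 had the same start.

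The unnamed loci, 8.88 to 11.5% of counts per library, were kept in the test and out of library sizes. Library sizes and TMM factors came from loci with a gene name. edgeR 4.0.16 (quasi-likelihood test, two-sided, group alone) was fitted to the 25602 loci with a mean count of at least 10, and p-values were adjusted by Benjamini-Hochberg over all of them at 0.05. Standard errors derive from the F statistic. CPM is scaled by the same library sizes. A count of 0 allows up to 3 counts, and intervals cover counting error only. Alternatives were DESeq2 1.42.0, limma 3.58.1 on log2(FPKM + 1) from the deposited FPKM, other library sizes and filters, the replicate number as a block, and each library left out. Counts for the 25602 loci were simulated with 1 spread for every locus, the 0.468 estimated from all 6 libraries. On them the fit found 0, 1, 19 and 47 of 50 loci simulated with 1.5, 2, 4 and 8-fold differences, and made 2 false calls. The loci given a difference were drawn only from those with a mean count of at least 50. R 4.3.3, Python 3.11.15, scipy 1.17.1 and matplotlib 3.10.9 were used.

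The loci named were drawn from the called ones and the 8 with the smallest p per direction among those with non-overlapping groups and a mean count of at least 100. Further sources were the 5 highest by CPM and by FPKM, the top member of the largest clusters, up to 6 within 100 kb of a called locus, the longest, those beside the threshold, and protein-coding neighbours within 10 kb. Not every locus taken by these rules is described, among those left out the longest and most of the 8 lower ones. Others are stated as chosen after their values were seen. The members, lists and rules were chosen with earlier results of these data known.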

Additional observations from a re-analysis of the deposited data

How the results depend on the processing

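Under the alternatives, the 37 members taken by the rules above, described or not, gave 504 comparisons with the reported fit: 402 kept direction and side of the threshold, 68 lost the call, 26 gained it and 8 changed sign. DESeq2 called 479 loci higher and 324 lower, among them 64 members higher and 8 lower. With mean FPKM of at least 1 as the filter, 35 loci were higher. With total counts without TMM, 7 members were higher, and MSTRG.11958, MSTRG.23694, MSTRG.307 and MSTRG.515 lost the call (edgeR's adjusted p = 0.059, 0.0723, 0.0931 and 0.077). In limma, MSTRG.307 and MSTRG.515 lost it and MSTRG.26376 and MSTRG.26385 gained it (adjusted p = 0.00854 each). Of all loci, 1 was lower with total counts without TMM, with library sizes from all loci and with no filter. Leaving out 1 library gave 0 to 1581 loci higher, 0 to 1134 lower, 0 to 114 members higher, 0 to 25 members lower and a median log2 fold change of members of 0.018 to 0.222. The difference in the members' share of counts was 0.606 to 0.756 percentage points on leaving out 1 library. With a gap of 5 or 50 kb there were 108 or 218 clusters.

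Same-numbered libraries of both groups did not deviate together (r = -0.109, 0.0465 and -0.0118). The labels do not say whether the numbers pair libraries. These correlations cannot decide it, since they use deviations from the group mean and healthy replicate 3 stands apart in its group. With the replicate number as a block, 0 loci were higher and 0 lower, 0 members were higher, the members' median was 0.134 and MSTRG.17958 was at 0.48. Across all omissions of 1 library, the log2 fold change ran from -0.87 to 1.44 for MSTRG.17958, from -0.09 to 1.22 for MSTRG.864, from -0.06 to 0.38 for MSTRG.22687, from -1.40 to 0.78 for MSTRG.1840 and from -0.13 to 0.44 for MSTRG.1320. Sign changes were seen for MSTRG.17958 (0.01 in limma, 1.44 without healthy replicate 3), MSTRG.864 (-0.09 without healthy replicate 1), MSTRG.22687 (-0.06 without healthy replicate 3), MSTRG.1840 (0.78 without healthy replicate 3) and MSTRG.1320 (-0.13 without atretic replicate 3, -0.07 without healthy replicate 1), none called with all 6 libraries. The cause was not tested. With 3 libraries per group, the simulated loci with 1.5 and 2-fold differences were found in 0 and 1 of 50 cases. All of these had a mean count of at least 50 and were given the same spread. Their recovery thus does not describe loci with lower counts or with another spread. The 1079 members under 30 counts varied more between replicates than those with more counts.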

Other observations

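The loci around the members of the chromosome 7 block that carry a strand or a name showed the same pattern. MSTRG.26378, named ENSOARG00020019979, had 16486, 14366 and 16344 counts in atretic libraries, against 169, 74 and 52 in healthy libraries. The unnamed stranded MSTRG.26382 (39338609 to 39402515) had 855, 720 and 910 counts in atretic replicates 1, 2 and 3, and every healthy library was at 0 (edgeR's adjusted p = 0.0197). Of the 12 tested loci of the block, 6 were members.

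On the scaffold of MSTRG.514 and MSTRG.515, a pair of unnamed loci with opposite strands, MSTRG.519 and MSTRG.520, covers nearly the same bases (14384 to 17193). MSTRG.519 had 0, 7 and 29715 counts in atretic replicates 1, 2 and 3, and every healthy library was at 0. MSTRG.520 had 46340, 49243 and 22004 counts in atretic libraries, against 33877, 30882 and 13886 in healthy libraries. Reads of such a pair cannot be told apart without strand.

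MSTRG.15662, 3254 bases upstream of ID3, an inhibitor of basic helix-loop-helix factors, had 16, 22 and 43 counts in atretic libraries, against 8, 0 and 9 in healthy libraries (edgeR's adjusted p = 0.585). ID3 itself passed, with 100 ± 9.77 CPM in atretic libraries, against 40.4 ± 1.79 in healthy libraries (SD, n = 3 each, log2 fold change 1.31, edgeR's adjusted p = 0.0381).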
